A study of Mus musculus with 7 samples.

Results

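In all, 10 genes known from mature migratory dendritic cells (DCs) were followed in immature and mature bone marrow-derived dendritic cells (BMDCs). They are Ccr7, Ccl17, Ccl22, Fscn1, Cd83, Cacnb3, Marcksl1, Tmem123, Tmem176a and Tmem176b, and all 10 are among the 28666 genes of the count table. They were chosen by symbol for their known association with such cells, with earlier results of these data known. Bone marrow of female C57BL/6 mice aged 6 to 8 weeks was differentiated with GM-CSF (20 ng/mL) and IL-4 (10 ng/mL) over 7 days, and the BMDCs were placed in a Transwell with MC38 colon carcinoma cells of the mouse. The results text of the study places the sort after 24 h of DON, a glutamine antagonist, whereas its figure legend names DMSO or DON at 5 µM. The study also describes less glutamine in its co-cultures with DMSO than in those with DON. The drug and the glutamine level of each sorted sample are thus not fixed by the sources used here. Immature cells (3 libraries) and mature cells (4 libraries) were separated by flow sorting from such co-cultures. The markers of this sort were not given in the sources used here, so any of the 10 whose protein had served in it would differ by selection. Both groups therefore share the strain, the cytokines and the tumor co-culture, and they are ends of an in vitro culture, not cells that had left a tissue.

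When a DC matures, it changes from capturing antigen in a tissue to carrying it to the draining lymph node. CCR7, the receptor for CCL19 and CCL21, guides that journey, and the actin bundler fascin (Fscn1) builds the long dendrites and protrusions of the moving cell. CCL17 and CCL22 are secreted ligands of CCR4 that attract T cells, including regulatory T cells, and CD83 protects MHC class II and CD86 from ubiquitination. Cacnb3 encodes a beta subunit of voltage-gated calcium channels, Marcksl1 a MARCKS-like protein that binds actin and the plasma membrane, and Tmem123 (porimin) a transmembrane receptor linked to a form of cell death. Tmem176a and Tmem176b encode related intracellular membrane proteins with ion channel activity that resemble the MS4A family.

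Promoter sequences are shown for the genes on which the contrasts below turn, namely the chemokine neighbours Ccl22 and Ccl17, which changed unequally, and the divergent pair Tmem176b and Tmem176a. RefSeq windows on GRCm38.p6, from 250 bases before to 50 after an annotated start, matched 8 of the 10 genes in 13 windows. Capitals mark a motif match, and a match is a description of letters only. The Ccl22 window is chr8:94745434-94745733 on the plus strand, and its start lies inside the gene as the deposited table bounds it. The Ccl17 window is chr8:94810203-94810502 on the plus strand, with a STAT6-type match whose outermost base lies 154 bases before the start. The Tmem176b window is chr6:48841325-48841624 on the minus strand, with a kappa B match that begins 32 bases before the start, and it also contains a Tmem176a start 109 bases away that reads the other way.
Ccl22: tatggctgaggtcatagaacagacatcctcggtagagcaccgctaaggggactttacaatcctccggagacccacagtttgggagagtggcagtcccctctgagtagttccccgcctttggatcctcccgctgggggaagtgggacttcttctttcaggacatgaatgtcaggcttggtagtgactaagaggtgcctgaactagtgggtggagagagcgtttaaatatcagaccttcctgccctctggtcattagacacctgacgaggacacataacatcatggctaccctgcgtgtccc
Ccl17: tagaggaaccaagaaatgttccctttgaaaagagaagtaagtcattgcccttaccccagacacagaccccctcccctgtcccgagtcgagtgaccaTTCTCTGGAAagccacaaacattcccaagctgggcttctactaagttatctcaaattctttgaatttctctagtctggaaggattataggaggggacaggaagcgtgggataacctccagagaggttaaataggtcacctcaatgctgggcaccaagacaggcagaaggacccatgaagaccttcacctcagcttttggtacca
Tmem176b: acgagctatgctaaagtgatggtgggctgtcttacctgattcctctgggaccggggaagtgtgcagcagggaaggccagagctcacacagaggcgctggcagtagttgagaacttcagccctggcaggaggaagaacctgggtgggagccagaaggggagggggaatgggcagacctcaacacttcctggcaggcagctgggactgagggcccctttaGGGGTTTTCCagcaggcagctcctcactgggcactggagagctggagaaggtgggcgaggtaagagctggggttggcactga

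Both strands of the windows were searched for 4 motifs. The kappa B motif was found in 2 of 13 windows, 1 of Tmem176a and 1 of Tmem176b, and in those of no other of the 8 genes. These windows overlap each other and hold the same site, so the match is 1 site counted in both. The motif was found in 4.51% of all 32851 RefSeq windows. The STAT6 motif TTCNNNNGAA was found in 1 of the 13 windows, that of Ccl17, and in 6.95% of all windows. The AP-1 motif TGANTCA (7.81% of all windows) and the interferon response motif GAAANNGAAA (3.44%) were not found in the 13 windows.

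Total counts were 54846746 to 67973086 per library, and 17461 genes passed the filter on low counts, the 10 genes among them. Mature replicate 3 stood apart from the other mature libraries, with a median distance from its group of 0.40 on the log2 scale against 0.18 to 0.21 for the others. Its values followed transcript length. Among 13246 genes, the log2 ratio between this library and the average of the remaining mature ones had a median of 0.66 for longest transcripts under 1000 bases and of -0.33 for those over 4000 bases (Spearman's rho -0.61 across genes, themselves no independent replicates). The 10 heart muscle markers summed to 5.93 to 6.37 CPM (read counts over the TMM-adjusted library size) in immature libraries, 26.9 CPM in mature replicate 1 and 720 to 848 CPM in mature replicates 2, 3 and 4. Fold changes of the 10 genes are therefore also given without mature replicate 3 and with mature replicate 1 as the only mature library. The latter are values only, since the spread of a single mature library cannot be measured. The labels name no culture or animal for a replicate, so p-values measure the spread between these libraries, which may be technical.

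Of the 10 genes, 9 were higher in mature BMDCs past the study's criteria (a log2 fold change of 1 or more in size, with an adjusted p under 0.05) and 0 were lower. Across all tested genes, 13.2% were higher and 9.95% lower by the same criteria. In 9 of the 10 genes every mature library lay above every immature one, which held for 25.4% of all tested genes. Since the 10 were chosen with earlier results of these data known, these counts are descriptions and no test of the group. The median log2 fold change of the 10 was 2.96, beside 0.05 over all tested genes. Together the 10 genes took 0.223% to 0.240% of the counts of an immature library and 1.82% to 1.97% of those of a mature one. Ccl17 was the exception. Fold changes here come from edgeR's quasi-likelihood test with Benjamini-Hochberg adjustment over all tested genes, and in bulk RNA fewer cells of a type and less RNA per cell cannot be told apart.

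**Figure D1:**
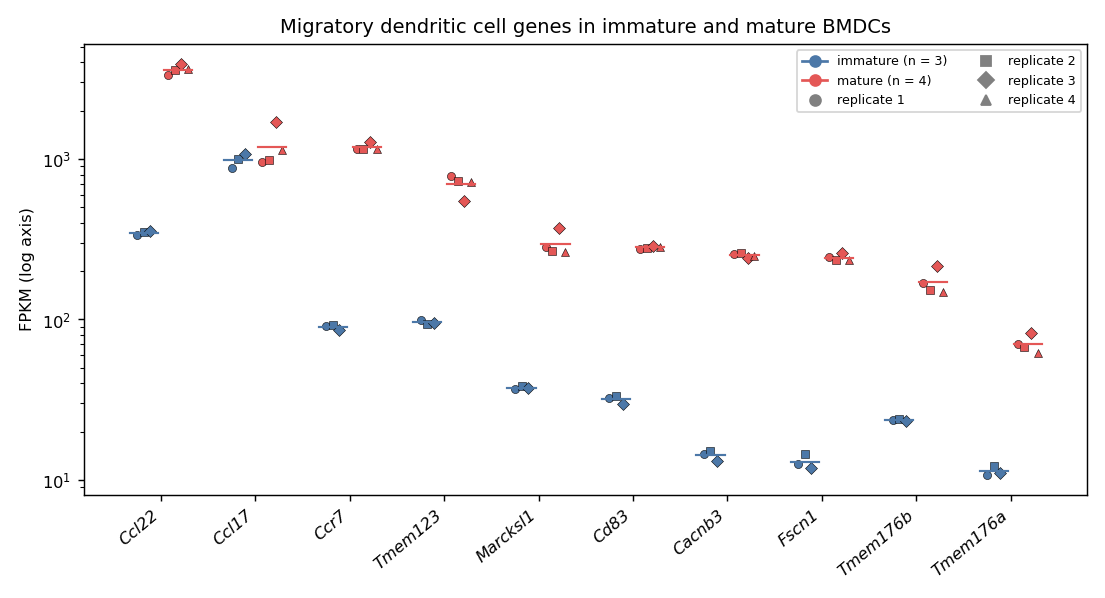
FPKM (fragments scaled by gene length and library size, log axis) of each gene in every library, with immature libraries in blue, mature libraries in red, the replicate number as the symbol and the group mean as a line. For 9 genes the red points lie above all blue points, whereas those of Ccl17 overlap, from 884 to 1071 FPKM in immature and from 959 to 1700 FPKM in mature libraries.

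The chemokine receptor was examined first. Ccr7 (ENSMUSG00000037944, chr11:99144196-99155077, minus strand, GRCm38) measured 203, 203 and 200 CPM in immature replicates 1, 2 and 3. In mature replicates 1, 2, 3 and 4 it measured 2362, 2310, 2874 and 2378 CPM. The immature libraries were nearly level, and mature replicate 3 was the highest of the mature ones, with no overlap between groups. Ccr7 was 12.3-fold higher in mature cells, which is 3.62 on the log2 scale (standard error, SE, 0.11, edgeR adjusted p = 1.83e-07). It was 3.56 without mature replicate 3 and 3.57 with mature replicate 1 alone.

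Of the CCR7 ligand genes, Ccl19 was not analysed here, and Ccl21a was at 0 counts in every immature library and in mature replicate 1, and at 0.303 CPM or less in the other mature libraries. Among the listed genes of CCR7 and CCR4 chemotaxis, 3 of 6 tested were higher and 1 was lower (13.2% and 9.95% of all tested genes). Ptger4, the prostaglandin E2 receptor EP4, rose from a mean of 37.5 ± 4.81 CPM (SD, n = 3) in immature to 143 ± 4.34 CPM (SD, n = 4) in mature libraries (log2 fold change 1.93, edgeR adjusted p = 1.43e-06). St8sia4, the polysialyltransferase that modifies CCR7, rose from a mean of 55.8 ± 3.39 CPM (SD, n = 3) in immature to 189 ± 32.4 CPM (SD, n = 4) in mature libraries (log2 fold change 1.76, edgeR adjusted p = 2.02e-05). Gpr183, an oxysterol receptor that positions DCs, fell by 1.09 on the log2 scale, from 20.4 to 9.58 CPM (edgeR adjusted p = 0.0011), and its call was lost in 6 of 16 alternative fits. Ccr4, the receptor for CCL17 and CCL22, rose at a very low level, from 0.19 to 0.67 CPM, with a log2 fold change of 1.82 (edgeR adjusted p = 0.0461), but the call was lost in 11 of 16 alternative fits, 3 of which did not test it. Mature replicate 1 (0.23 CPM) lay within the immature range.

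The signalling genes below chemokine receptors moved less than the receptor. Of 13 tested, 3 were higher, 0 lower and 10 did not pass, beside 13.2% higher and 9.95% lower of all tested genes. Their median log2 fold change was 0.01. Pik3r5 and Pik3cg encode the regulatory and catalytic subunits of phosphoinositide 3-kinase gamma, which acts below G protein-coupled receptors. Pik3r5 rose from 165 to 552 CPM (log2 fold change 1.74, edgeR adjusted p = 1.78e-06) and Pik3cg from 115 to 357 CPM (1.63, edgeR adjusted p = 8.35e-05). Elmo1, a partner of DOCK2 in Rac activation, rose from 34.9 to 74.3 CPM. Rac1, Cdc42, Rhoa and Dock2 did not pass, with log2 fold changes of 0.01, -0.26, -0.16 and -0.10.

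The 2 CCR4 ligands lie on chromosome 8 with 58.754 kb between them, and they differed. Ccl22 (ENSMUSG00000031779, chr8:94745590-94751699, plus strand) measured 880, 909 and 962 CPM in immature replicates 1, 2 and 3, and 8024, 8404, 10214 and 8875 CPM in mature replicates 1 to 4. The mature values all lay far above the immature ones. Ccl22 was 9.68-fold higher in mature cells (log2 fold change 3.28, SE 0.12, edgeR adjusted p = 3.04e-07). It was 3.23 on the log2 scale without mature replicate 3 and 3.15 with mature replicate 1 alone. It alone took 0.0843% to 0.0914% of the counts in immature and 0.850% to 0.985% in mature libraries.

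Ccl17 (ENSMUSG00000031780, chr8:94810453-94812036, plus strand) measured 513, 573 and 644 CPM in immature replicates 1, 2 and 3. In mature replicates 1 to 4 it measured 511, 514, 989 and 615 CPM. Mature replicates 1, 2 and 4 lay near or within the immature range, and mature replicate 3 alone stood above it. Its log2 fold change was 0.19 (SE 0.23, 95% interval -0.33 to 0.71, edgeR adjusted p = 0.539), a fold between 0.793 and 1.64. The direction rested on mature replicate 3, since the value was -0.05 without it and -0.15 with mature replicate 1 alone. Ccl17 also has the shortest transcript of the 10 genes, at 514 bases, and was 0.86 higher on the log2 scale in mature replicate 3 than in the other mature libraries. The part of transcript length in that difference was not tested.

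Per length, the balance of the 2 ligands was reversed. The ratio of Ccl22 to Ccl17 FPKM was 0.379, 0.351 and 0.331 in immature replicates 1, 2 and 3, and 3.47, 3.61, 2.28 and 3.19 in mature replicates 1 to 4. Ccl17 was the higher of the pair in each immature library and Ccl22 in each mature one. The mean log2 ratio rose by 3.13, or 8.76-fold, with p = 0.0571 in a two-sided exact permutation test, the smallest p that 3 libraries against 4 allow (adjusted p = 0.0571 over the 2 ratios tested, which were chosen after the values were seen).

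**Figure D2:**
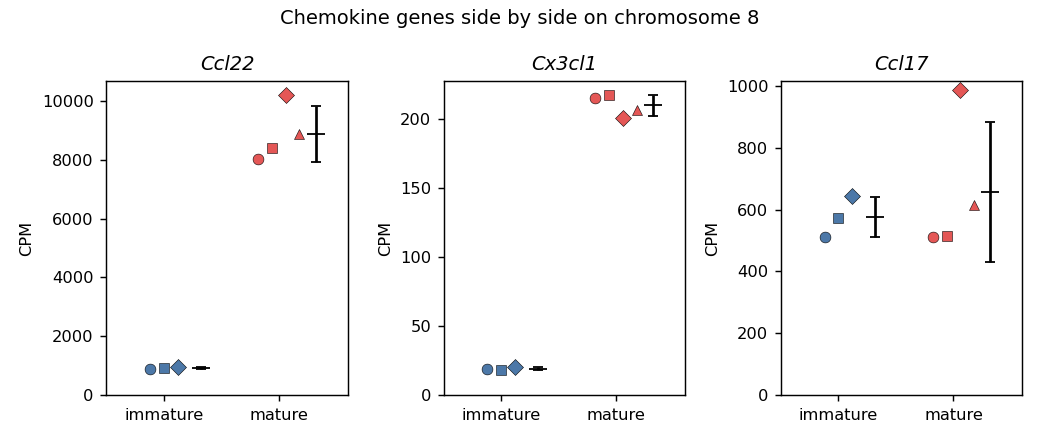
CPM of Ccl22, Cx3cl1 and Ccl17 in each library, each panel with its own axis from 0, immature in blue and mature in red, and the mean and SD as a black bar (n = 3 and n = 4). Cx3cl1 and Ccl22 separate the groups, and Ccl17 has 3 of 4 mature points at 511 to 615 CPM, beside 513 to 644 CPM in immature cells.

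Cx3cl1, the gene of the membrane-bound chemokine fractalkine, lies between the 2 ligand genes, 20.31 kb from Ccl22 and 28.026 kb from Ccl17. It measured 19.1, 17.9 and 20.2 CPM in immature replicates 1, 2 and 3 and 215, 217, 200.4 and 207 CPM in mature replicates 1 to 4. It thus moved with Ccl22, with a log2 fold change of 3.46 (SE 0.09, edgeR adjusted p = 1.28e-07). Ciapin1, 7.768 kb beyond Ccl17, did not pass (log2 fold change -0.28, edgeR adjusted p = 0.0945).

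CD83 is both a marker of mature DCs and a regulator of MHC class II turnover. Cd83 (ENSMUSG00000015396, chr13:43784775-43803132, plus strand) measured 93.8, 96.1 and 90.0 CPM in immature replicates 1, 2 and 3 and 734, 724, 840 and 762 CPM in mature replicates 1 to 4. The groups were well apart and the mature libraries close together. Its log2 fold change was 3.04 (SE 0.09, edgeR adjusted p = 1.83e-07), or 8.20-fold. It was 3.01 without mature replicate 3 and 3.00 with mature replicate 1 alone. March1, the ubiquitin ligase of MHC class II that CD83 opposes, measured 53.6, 48.1 and 53.6 CPM in immature and 7.72, 10.6, 8.81 and 9.69 CPM in mature replicates. It fell by 2.49 on the log2 scale (edgeR adjusted p = 1.08e-06), in the opposite direction to Cd83. March8, a related ligase, measured 92.0 ± 4.48 CPM (SD, n = 3) and 60.8 ± 8.90 CPM (SD, n = 4) and did not reach the fold criterion (log2 fold change -0.60, edgeR adjusted p = 0.00377).

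Fscn1 showed the largest change of the 10 genes. Fscn1 (ENSMUSG00000029581, chr5:142960343-142973185, plus strand) measured 42.8, 48.7 and 42.0 CPM in immature replicates 1, 2 and 3, and 767, 721, 880 and 736 CPM in mature replicates 1 to 4. It was 17.4-fold higher, with a log2 fold change of 4.12 (SE 0.12, edgeR adjusted p = 1.59e-07), and 455 tested genes had a larger one. Without mature replicate 3 the value was 4.08, and with mature replicate 1 alone 4.13. Marcksl1 (ENSMUSG00000047945, chr4:129513581-129515985, plus strand) measured 66.8, 68.8 and 70.1 CPM in immature and 469, 434, 674 and 444 CPM in mature replicates. Mature replicate 3 lay well above the other mature libraries. Its log2 fold change was 2.88 (SE 0.17, edgeR adjusted p = 2.83e-06), and 2.74 without mature replicate 3 or 2.80 with mature replicate 1 alone.

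Other actin genes did not move as a block. Of 20 listed genes of actin bundling, capping and the cortex, 3 were higher, 1 was lower and 16 did not pass. Their median log2 fold change was 0.13, and 13.2% of all tested genes were higher and 9.95% lower. Marcks, the paralog of Marcksl1, rose from a mean of 250 ± 7.53 CPM (SD, n = 3) in immature to 655 ± 35.9 CPM (SD, n = 4) in mature libraries (log2 fold change 1.39, edgeR adjusted p = 2.22e-06). Myo1g, a myosin of leukocyte membranes, rose from 432 to 1081 CPM (log2 fold change 1.32, edgeR adjusted p = 1.43e-06). Actn1, the cross-linker alpha-actinin-1, rose from 153 to 318 CPM (log2 fold change 1.06), a call lost in 2 of 16 alternative fits, that without immature replicate 2 among them. Flna, the cross-linker filamin A, fell by 1.13 on the log2 scale, from 1694 to 776 CPM (edgeR adjusted p = 0.000362). That fall was past the criteria with all 7 libraries but not without mature replicate 3, where Flna was lowest at 555 CPM. The bundler genes Lcp1 and Pls3 were below the fold criterion, at 0.32 and 0.35. Evl, Cotl1 and Msn fell and were also short of it, at -0.87, -0.87 and -0.86. By adjusted p without the fold criterion, 8 genes of the list were higher and 4 lower.

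Cacnb3 (ENSMUSG00000003352, chr15:98630840-98644529, plus strand) measured 65.9, 68.1 and 62.0 CPM in immature replicates 1, 2 and 3 and 1067, 1053, 1097 and 1050 CPM in mature replicates 1 to 4. The mature libraries differed little, mature replicate 3 included. It was 16.3-fold higher, with a log2 fold change of 4.03 (SE 0.09, edgeR adjusted p = 1.28e-07). The value was 4.04 without mature replicate 3 and 4.06 with mature replicate 1 alone. Of 13 other voltage-gated calcium channel subunits tested, 9 were higher, 0 lower and 4 did not pass, all at far lower counts than Cacnb3. Over all tested genes 13.2% were higher and 9.95% lower. The calls of Cacna2d1 and Cacnb4 were each lost in 6 of 16 alternative fits, 3 of which did not test them. Cacna1d, a pore-forming subunit, rose from a mean of 7.33 ± 1.23 CPM (SD, n = 3) in immature to 27.3 ± 6.28 CPM (SD, n = 4) in mature libraries (log2 fold change 1.9, edgeR adjusted p = 9.85e-05). Cacna2d2, an auxiliary subunit, rose from 2.72 to 21.6 CPM, and Cacnb1, another beta subunit, from 9.01 to 20.3 CPM. The largest rise by fold was in Cacna1c, the main calcium channel of heart muscle (log2 fold change 4.86, edgeR adjusted p = 0.00508). It measured 0.53 CPM in mature replicate 1 and 4.16 to 5.03 CPM in the others, the libraries with heart muscle transcripts, whose part in it was not tested. With an FPKM of at least 5 required in 3 libraries, 0 of the subunits were left to test.

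Tmem123 was the only one of the 10 genes whose CPM was lowest, among mature libraries, in mature replicate 3. Tmem123 (ENSMUSG00000050912, chr9:7764041-7794333, plus strand) measured 349, 327 and 346 CPM in immature replicates 1, 2 and 3 and 2514, 2315, 1935 and 2326 CPM in mature replicates 1 to 4. Its log2 fold change was 2.74 (SE 0.11, edgeR adjusted p = 4.94e-07), or 6.67-fold, with 2.83 without mature replicate 3 and 2.91 with mature replicate 1 alone. Its longest transcript, at 2907 bases, is the longest of the 10.

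**Figure D3:**
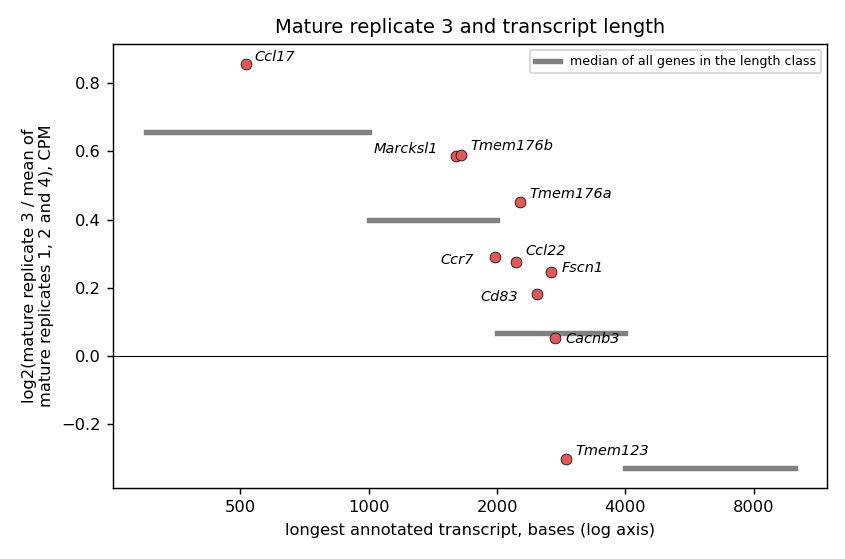
Log2 ratio of CPM in mature replicate 3 to the mean of mature replicates 1, 2 and 4 (vertical axis) against the longest annotated transcript in bases (log axis), with each of the 10 genes as a point and medians of all genes per length class as grey lines whose outer classes are open-ended. The points run from 0.86 for Ccl17 to -0.30 for Tmem123, and the class medians fall with length, from 0.66 through 0.40 and 0.07 to -0.33.

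Tmem176b and Tmem176a overlap by 456 bases on opposite strands of chromosome 6. Tmem176b (ENSMUSG00000029810, chr6:48833818-48841374, minus strand) measured 63.6, 64.0 and 64.8 CPM in immature replicates 1, 2 and 3 and 414, 367, 578 and 371 CPM in mature replicates 1 to 4. Its log2 fold change was 2.75 (SE 0.17, edgeR adjusted p = 3.9e-06). Tmem176a (ENSMUSG00000023367, chr6:48840919-48845869, plus strand) measured 46.5, 52.0 and 49.0 CPM in immature and 276, 260, 357 and 248 CPM in mature replicates, with a log2 fold change of 2.54 (SE 0.14, edgeR adjusted p = 2.03e-06). Without mature replicate 3 the values were 2.61 for Tmem176b and 2.43 for Tmem176a, and with mature replicate 1 alone 2.72 and 2.51. In both genes mature replicate 3 was highest and no libraries overlapped between groups. The library kit keeps strand but the strand setting of the counting was not given, so reads of the shared bases may have been assigned to either gene.

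The ratio of Tmem176b to Tmem176a FPKM was 2.2, 1.98 and 2.12 in immature and 2.41, 2.27, 2.60 and 2.40 in mature replicates. It was thus 1.15-fold higher in mature cells, with p = 0.0571 in a two-sided exact permutation test, again the smallest possible. Among 10 tested MS4A genes, 2 were higher, 1 was lower and 7 did not pass, beside 13.2% higher and 9.95% lower of all tested genes. Ms4a4a rose from 2.11 to 24.4 CPM (log2 fold change 3.53, edgeR adjusted p = 6.32e-07), the largest rise of that list. Ms4a8a fell by 3.41 on the log2 scale, from 5.33 to 0.50 CPM (edgeR adjusted p = 1.61e-05). The rise of Ms4a4c, from 0.38 to 0.84 CPM, was lost in 11 of 16 alternative fits, 3 of which did not test it.

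**Figure D4:**
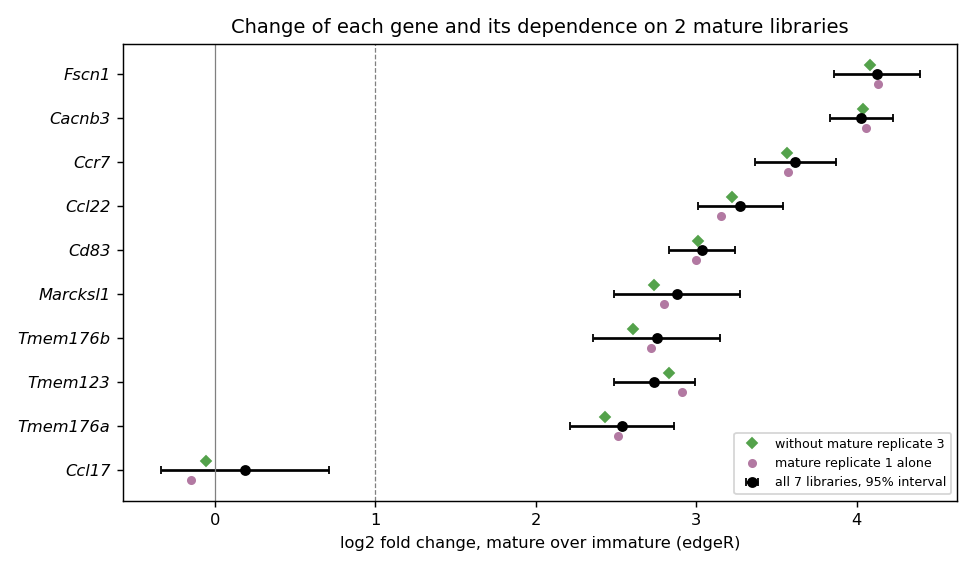
Log2 fold change of mature over immature cells for each gene (horizontal axis), with the edgeR value of all 7 libraries and its 95% interval in black, the value without mature replicate 3 in green and with mature replicate 1 alone in purple. Lines stand at 0 and at the criterion of 1, and all but Ccl17 lie beyond 2.21 at the low end of the interval.

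In order of level per length, immature BMDCs had most Ccl17, at 984 ± 94.1 FPKM (SD, n = 3), followed by Ccl22 at 346 ± 9.85 FPKM, Tmem123 at 96.2 ± 2.73 FPKM and Ccr7 at 89.8 ± 2.93 FPKM. Marcksl1, Cd83 and Tmem176b followed at 37.5, 31.9 and 23.7 FPKM. Cacnb3, Fscn1 and Tmem176a came last at 14.3, 13.0 and 11.3 FPKM, and their neighbouring ranges overlapped. In mature BMDCs, Ccl22 led at 3604 ± 228 FPKM (SD, n = 4), the 12th highest of the tested genes. Ccl17 at 1197 ± 345 FPKM and Ccr7 at 1183 ± 66.8 FPKM overlapped in range. Tmem123 followed at 694 ± 100.3 FPKM, and Marcksl1 at 296 FPKM overlapped Cd83 at 281 FPKM. Cacnb3 at 252 FPKM overlapped Fscn1 at 243 FPKM, and Tmem176b and Tmem176a came last at 171 and 70.5 FPKM.

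The profile of Ccr7 over the 7 libraries was compared with those of other genes as the root mean square difference of log2 CPM, each centred on its immature mean. Within the group, Ccl22 (0.264) and Cacnb3 (0.327) came closest to Ccr7, and Ccl17 (2.63) was farthest. Outside the group and among genes of a mean CPM of at least 10, near ones were Htr7 (0.110), Sh3bp4 (0.132), Klrk1 (0.137) and Gnb4 (0.157). Gnb4, a G protein beta subunit, rose from 10.9 to 145 CPM, and Htr7, a serotonin receptor gene, from 3.11 to 39.5 CPM. For Tmem176b the nearest were Rogdi (0.0744), Pkib (0.106), Cmc2 (0.106), Relb (0.111) and Cd40 (0.118). These likenesses are descriptions over 7 libraries in which the step between groups and the height of mature replicate 3 both count.

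The nearest protein-coding genes on the chromosome were also read. Of 17 different neighbours that are not among the 10 genes, 14 were tested, 4 were higher and 1 was lower. The shares over all tested genes were 13.2% and 9.95%. Besides Cx3cl1, Adcy6, an adenylate cyclase gene 20.764 kb from Cacnb3, rose from 27.2 to 416 CPM (log2 fold change 3.93, edgeR adjusted p = 2.08e-07), close to the 4.03 of Cacnb3. Aoc1, a diamine oxidase gene 27.027 kb from Tmem176a, rose from 1.11 to 22.9 CPM (log2 fold change 4.36, edgeR adjusted p = 5.63e-07). Birc2, which encodes a cellular inhibitor of apoptosis 23.894 kb from Tmem123, rose from 41.9 to 169 CPM. Tns4, 54.89 kb from Ccr7, fell by 1.26 on the log2 scale. Ddx23 and Hdac1, within 0.605 kb of Cacnb3 and 0.119 kb of Marcksl1, did not pass (-0.28 and 0.24).

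Most other genes known from mature migratory DCs were higher in mature cells. Of 28 tested, 22 were higher, 0 lower and 6 did not pass, beside 13.2% higher and 9.95% lower of all tested genes. The median log2 fold change was 2.1, and the count was again 22 without mature replicate 3. Like the others, this list was chosen with earlier results of these data known, so the count is no independent support. The 22 include Cd80 and Cd86, whose proteins the study uses in flow cytometry to define mature DCs, so both may differ by the sort itself. Among those that did not pass, Cd63 measured 507 and 354 CPM (log2 fold change -0.52), and Anxa3 had a log2 fold change of 0.10. Cd200, an immune regulatory ligand, had the largest rise, from a mean of 3.34 ± 0.254 CPM (SD, n = 3) in immature to 67.3 ± 6.86 CPM (SD, n = 4) in mature libraries (log2 fold change 4.33, edgeR adjusted p = 1.82e-07). Serpinb9, a granzyme B inhibitor, rose from 17.4 to 256 CPM (log2 fold change 3.88). Relb and Nfkb2, which encode NF-kappa B subunits, rose from 41.5 to 257 CPM (2.63) and from 104 to 526 CPM (2.34). Il4i1, an amino acid oxidase, rose from 117 to 752 CPM (2.69). Cd274 and Pdcd1lg2, which encode ligands of PD-1, did not reach the fold criterion (0.56 and 0.69). Lamp3 was not tested because it was at 0.11 CPM or less on average in both groups.

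**Figure D5:**
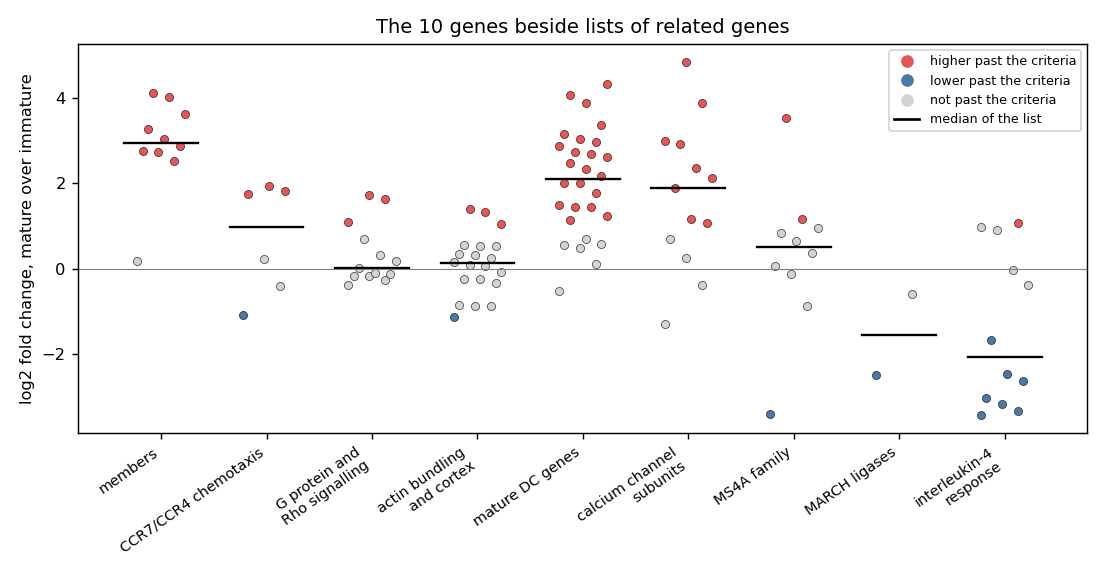
Log2 fold change of mature over immature cells (vertical axis) for the 10 genes and for each tested gene of 8 lists of related genes, with genes higher past the criteria in red, lower in blue and not past them in grey, and the list median as a black line. The median was 2.96 for the 10 genes, 2.1 for other mature DC genes and -2.07 for interleukin-4 response genes.

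Interleukin-4, a component of the culture, induces Ccl17 and Ccl22 in DCs and macrophages. Of 12 other interleukin-4 response genes, 7 were lower, 1 was higher and 4 did not pass in mature BMDCs, beside 9.95% lower and 13.2% higher of all tested genes. All 9 macrophage markers were lower too, and whether the response to interleukin-4 itself differed was not tested. Mrc1, the mannose receptor gene, had the largest fall, by 3.43 on the log2 scale from 158 ± 15.2 CPM (SD, n = 3) in immature to 14.7 ± 1.16 CPM (SD, n = 4) in mature libraries (edgeR adjusted p = 1.83e-07). Chil3, a chitinase-like gene, fell by 3.02, from 10244 to 1264 CPM, and Arg1, arginase 1, by 3.34, from 2482 to 245 CPM. Il4ra, the receptor gene, rose from 245 to 516 CPM (log2 fold change 1.08, edgeR adjusted p = 1.19e-05), and Stat6 was at 277 and 272 CPM.

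Markers of cell types moved with the groups. All 9 macrophage markers were lower in mature libraries, with a summed level of 2305 to 2373 CPM in immature and 423 to 534 CPM in mature libraries, and none was at 0. Csf1r, the receptor of macrophage colony-stimulating factor, fell by 2.62 on the log2 scale, from 732 to 119 CPM. Of 8 DC markers, 3 were higher, 1 was lower and 4 did not pass, with a median log2 fold change of 0.47. Beside each count of markers here, 13.2% of all tested genes were higher and 9.95% lower. Zbtb46, a transcription factor of conventional DCs, rose from 25.6 to 106 CPM, Itgax was at 1386 and 1041 CPM, and Cd209a, the lower one, was under 1 CPM in both groups. Whether a change in the share of macrophage-like cells had a part in the rises of the 9 genes was not tested. All 10 heart muscle markers were higher in mature libraries. In mature replicate 1 they summed to 26.9 CPM, and with that library as the only mature one the same 9 genes had log2 fold changes of 2.51 to 4.13. Markers of neutrophils (2.67 to 10.1 CPM summed), T and B cells (1.95 to 6.22 CPM) and basophils and mast cells (0.992 to 2.72 CPM) were low in every library, with 2 of 4 tested, 0 of 6 and 0 of 3 lower and 0, 1 and 0 higher, and epithelial markers summed to 59.2 to 77.3 CPM, most of it Cdh1, with 1 of 5 tested higher.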

How the data were processed

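RNA of flow-sorted immature (3 libraries) and mature (4 libraries) BMDCs was analysed, with groups and replicate numbers from the labels. The authors deposited whole-number read counts per gene, without normalization, and FPKM values, which scale fragments by gene length and library total. The submitters' processing notes name cutadapt 1.9, HISAT2 2.2.1, StringTie 2.1.6, DESeq2 and edgeR without roles, and the build mm9. Gene positions in the table lie within 1000 bases of GENCODE M21 on GRCm38 for 93.6% of 28588 shared genes, so GRCm38 was used. The counting program and its strand setting were not given in the sources used here.

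Counts were tested in R 4.3.3 with edgeR 4.0.16 (its filter on low counts, TMM factors, quasi-likelihood test, all 7 libraries), with Benjamini-Hochberg adjustment over 17461 genes. The table held the whole-number counts that this design assumed. CPM are TMM-scaled. Intervals are 95% intervals of the model. Total counts of 54846746 to 67973086 bound counting error only, since copies of 1 molecule are counted separately. Ratios were tested with exact permutation tests in scipy 1.17.1. The pipeline was tested on simulated data with 200 changed genes.

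The 10 genes and all lists were chosen with earlier results of these data known. Named genes were the 10, their nearest neighbours, the 5 genes most like Ccr7 (of which 1 is not reported here) and like Tmem176b, the largest rise and fall of each list, and list genes past the criteria with a mean of at least 10 CPM. Others, such as those that did not pass, were chosen after their values were seen. Alternatives were DESeq2 1.42.0, limma 3.58.1 on log2(FPKM + 1) and log2(FPKM + 0.1), other scalings and filters, a TPM scale for levels, no fold criterion, each library left out, mature replicate 1 alone and the replicate number as a block. Promoter windows are RefSeq's on GRCm38.p6, and no window was matched for Ccr7 and Cd83.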

Additional observations from a re-analysis of the deposited data

Results flagged for a closer look

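The CPM of Ccr7 in mature replicate 3, 2874 beside 2310 to 2378 in the other mature libraries, stood apart, with a gap to the nearest library of 0.8799 of the range of the 4. The same held for Marcksl1, at 674 CPM beside 434 to 469, with a gap of 0.8538 of the range. Chance alone marks about 1 in 20 groups (5%), and 2 of the 10 genes were marked here, while mature replicate 3 was the most separate mature library in all 10. Over the 10 genes, its log2 ratio to the rest of the mature group was lower for longer transcripts, from 0.86 for Ccl17 to -0.30 for Tmem123 (Spearman's rho -0.94 as a description, n = 10 genes that share the same libraries). Without it the log2 fold change was 3.56 for Ccr7 and 2.74 for Marcksl1.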

How the results depend on the processing

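The number of the 10 genes higher in mature cells was 9, and the number lower 0, in each alternative with more than 1 mature library. The 9 genes kept their direction and their call in each of these. Without the fold criterion the main fit was read by a looser rule, so no call could be lost there. With mature replicate 1 alone, which takes its spread from the immature libraries, the 9 genes kept their direction. The log2 fold change of Ccl17 was reversed, to -0.052 without mature replicate 3 and to -0.15 with mature replicate 1 alone, while its adjusted p ranged from 0.286 to 0.795. Leaving out each library in turn gave -0.052 to 0.30 for Ccl17. Its fold change did not pass in any alternative. The listed genes past the criteria numbered 54, and 41 to 74 under the alternatives. Of the calcium channel subunits, 9 of 13 tested were higher, against 0 of 0 tested with an FPKM of at least 5, and 1 and 3 of 3 tested in the limma fits, which require an FPKM of at least 1. The higher interleukin-4 response genes numbered 1, and up to 3 under other scalings. Upper-quartile factors moved the median log2 fold change of all tested genes from 0.05 to 0.16, and member values by a like amount. Levels on a TPM scale were higher than FPKM, by a factor common to all genes of a library. Over all genes, limma on log2(FPKM + 1) called 946 higher and 822 lower of 11758 tested, against 2300 and 1737 of 17461 by edgeR, so test and filter differ together. Deviations of same-numbered libraries from their group means had correlations of 0.03, -0.0011 and 0.01. The distance of mature replicate 3 from its group enters these values, so they cannot settle whether the libraries are paired. Numbers were not taken as pairs in the main fit. With the replicate block, 1936 genes were higher and 1680 lower, the 9 genes passed with log2 fold changes of 2.59 to 4.15, and Ccl17 was at 0.15 (adjusted p = 0.531, edgeR).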
